A study of Homo sapiens with 24 samples.

Results

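YAP1 and its paralogue WWTR1 (which encodes TAZ), their DNA-binding partner TEAD1 and 6 genes known as YAP and TAZ targets were followed across 2 related mammary epithelial lines. The targets are CCN1 (also CYR61), CCN2 (also CTGF), ANKRD1, AMOTL2, AJUBA and LATS2. The 9 genes were taken by symbol from a table of 60668 gene rows, each through its Ensembl identifier, and all 9 were found. Both lines are MCF-10A, an immortalised, non-tumorigenic human mammary epithelial line of basal character. The parental line is labelled wild type, and the other carries MYC-ER, in which MYC, a transcription factor, is joined to the ligand-binding region of an oestrogen receptor and stays inactive until 4-hydroxytamoxifen (4-OHT) binds it. The labels leave out the species of the receptor region, the promoter that drives the fusion and whether the MYC-ER line is 1 clone. Both lines grew as 3D cultures on Matrigel and received 1 µM 4-OHT for 0, 8, 24 or 48 h, counted back from a common collection on day 5. Each of the 8 groups has 3 libraries, 24 in all. The parental line carries no fusion and received the same 4-OHT schedule. The labels do not say whether replicates were separate cultures of independent origin, so the p-values measure the spread between these libraries, which may be technical. The libraries are bulk RNA, in which fewer cells of a type and less RNA per cell cannot be told apart.

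In the Hippo pathway, the kinases STK3 and STK4 (MST2 and MST1) with the scaffold SAV1 activate LATS1 and LATS2, which phosphorylate YAP and TAZ and keep them out of the nucleus or mark them for degradation. Unphosphorylated YAP and TAZ enter the nucleus, bind TEAD factors and drive genes such as CCN1 and CCN2. Some targets feed back on the pathway: LATS2 phosphorylates YAP and TAZ, AMOTL2 holds YAP at junctions, and the LIM protein AJUBA binds LATS kinases and limits them. In mammary epithelium the pathway responds to cell shape, matrix stiffness and polarity. RNA levels do not measure the phosphorylation or the location of YAP and TAZ.

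RefSeq promoter windows (GRCh38.p14) of 250 bases before the start were found for 7 of the 9 genes. They were searched on both strands for GGAATG, the core of the TEAD recognition motif, and for CACGTG, the E-box that MYC with MAX binds. Of 35116 RefSeq windows of this length, 11.9% hold at least 1 GGAATG, 0.94% at least 2 and 0.0826% at least 3, and 6.34% hold a CACGTG. CCN2 has 3 copies of GGAATG, the first base of each standing 169, 104 and 95 bases before the start. YAP1 has 1 copy of GGAATG and 1 of CACGTG, and LATS2 has neither. These 3 windows are shown because the genes stand for a secreted target, a coactivator and a feedback kinase. Capitals mark GGAATG, and each sequence runs 5′ to 3′ on the strand of its gene. The windows are chr6:131951373-131951622 (minus strand) for CCN2, chr11:102110197-102110446 (plus strand) for YAP1 and chr13:21061587-21061836 (minus strand) for LATS2.
CCN2: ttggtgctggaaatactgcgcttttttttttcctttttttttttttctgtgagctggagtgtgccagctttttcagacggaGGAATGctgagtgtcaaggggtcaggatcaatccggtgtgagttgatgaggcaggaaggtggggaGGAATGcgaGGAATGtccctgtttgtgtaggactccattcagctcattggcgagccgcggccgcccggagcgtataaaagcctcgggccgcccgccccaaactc
YAP1: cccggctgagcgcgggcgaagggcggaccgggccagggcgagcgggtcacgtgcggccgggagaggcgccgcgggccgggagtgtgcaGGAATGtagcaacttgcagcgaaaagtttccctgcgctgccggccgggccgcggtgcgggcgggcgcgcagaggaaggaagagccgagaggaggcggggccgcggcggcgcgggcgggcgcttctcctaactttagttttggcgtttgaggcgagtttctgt
LATS2: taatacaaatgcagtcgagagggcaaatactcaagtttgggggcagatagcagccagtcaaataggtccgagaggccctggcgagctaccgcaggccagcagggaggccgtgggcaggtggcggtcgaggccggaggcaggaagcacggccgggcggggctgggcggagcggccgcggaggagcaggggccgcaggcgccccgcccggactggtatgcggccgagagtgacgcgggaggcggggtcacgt

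ANKRD1 has 2 copies of GGAATG in its window. AMOTL2 and AJUBA have 2 windows each, with 1 copy in 1 of the 2 windows of each gene, on the opposite strand for AMOTL2. Neither of the 2 windows of WWTR1 holds a copy. The windows of ANKRD1, AMOTL2 and AJUBA that hold a copy overlap the gene as annotated by GENCODE, so their bases are not all upstream of it, and both WWTR1 windows lie inside that gene. A match here is a match of letters and was not tested as a binding site.

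Library totals ran from 136860029 to 182438505 counts, a 1.33-fold range. Levels are given as CPM, a gene's share of its library's counts after TMM scaling, which evens libraries out across most genes. Basal mammary markers (KRT5, KRT14, KRT17, TP63, CDH3 and ITGB4) were present in each library. They summed to 10400 to 16000 CPM in MYC-ER and 18100 to 29600 CPM in parental libraries. At 0 h KRT14 was at 626 CPM in MYC-ER and 9720 CPM in parental cells, KRT17 at 323 and 2140 CPM. ITGB4 was at 651 and 1610 CPM and KRT5 at 12500 and 13300 CPM, while TP63 and CDH3 were higher in MYC-ER cells. At 8 h in MYC-ER cells KRT14, KRT17 and ITGB4 stood higher (1520, 1740 and 1400 CPM), and KRT5, TP63 and CDH3 lower. Summed levels of the 6 luminal markers in MYC-ER cells lay between 229 and 248 CPM at 0 h and between 613 and 656 CPM at 8 h. They lay between 391 and 466 CPM in MYC-ER cells later on, and between 247 and 420 CPM in parental libraries. Among them the keratin KRT18 had means of 97 CPM at 0 h and 503 CPM at 8 h in MYC-ER cells. The pioneer factor FOXA1 had 0.278 and 2.84 CPM at these times. KRT8 did not move (121 and 122 CPM), and GATA3 (18.9 and 8.53 CPM) and ESR1 (0.513 and 0.0118 CPM) fell. The receptor PGR was at 0 in each library. The rise of the luminal sum at 8 h thus came mostly from KRT18. The 3 endothelial markers summed to 0.058 to 2.32 CPM, with CDH5 at 0 in each library. The 3 leukocyte markers summed to 4.2 to 23.6 CPM, nearly all CD68, with CD3E at 0 in each library and PTPRC at 0 in each library of 7 of the 8 groups. The fibroblast collagens COL1A2 and COL3A1 were at or near 0. The MYC-ER libraries at 0 h stood apart: the 6 fibroblast markers summed to 370 to 377 CPM there, through COL1A1 and DCN, and to 102 to 109 CPM at 8 h. The mitochondrial share of counts was 9.24% to 9.71% at 0 h in the MYC-ER line and 5.61% to 6.58% at 8 h. Shifts in the basal, fibroblast and luminal markers and in the mitochondrial share move with each MYC-ER change from 0 h given below. Their part in those changes was not tested. The parental libraries at 0 h differed most among themselves: chi-square per degree of freedom between replicates was 173 to 285 there and 8.93 to 68.8 in the other groups. Replicate 1 of that group had a mitochondrial share of 3.86%, against 7.28% and 7.03% in the other two. Each parental change from 0 h rests on these libraries.

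Of the 9 genes, 8 passed the filter on low counts, each with at least 20 counts in each library, and ANKRD1 did not. Differences were tested in edgeR by its two-sided quasi-likelihood method, and p-values were adjusted by Benjamini-Hochberg over 22158 genes in each comparison, with a threshold of 0.05. After 8 h of 4-OHT in MYC-ER cells, 3 of the 8 rose and 5 fell, where 32.2% of all genes tested rose and 35.4% fell. The replicate values of 0 and 8 h did not overlap for 8 of 8, as for 73.5% of all genes. Their median log2 change was -0.74, against -0.1 over all genes. Changes of at least 2-fold were seen in 5 of the 8, against 34.7% of all genes. At 24 h 1 rose and 6 fell (30.4% and 31.2% of all genes), and at 48 h 1 rose and 4 fell (23.4% and 20.7%). In parental cells 3 rose and 1 fell at 8 h (15% and 16% of all genes), 6 rose and 0 fell at 24 h (21.2% and 21.7%), and 3 rose and 2 fell at 48 h (20.4% and 20.1%). In the fit over all libraries none of the 8 changed by 2-fold in the parental line, as 2.18%, 3.98% and 2.62% of all genes did at 8, 24 and 48 h. Some passed 2-fold otherwise. Without parental 0 h replicate 2 the log2 change was 1.25 (24 h) and 1.06 (48 h) for TEAD1 and 1.11 (24 h) for CCN2. With GC and length trends removed it was 1.02 for AMOTL2 at 24 h. In edgeR fits of only the groups compared, the 4 parental calls at 8 h were lost (adjusted p from 0.0619 for WWTR1 to 0.149 for TEAD1) and 3 of 5 were left at 48 h. The 3 times in a line share the same 0 h libraries, so their changes are set side by side and are not independent.

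**Figure D1:**
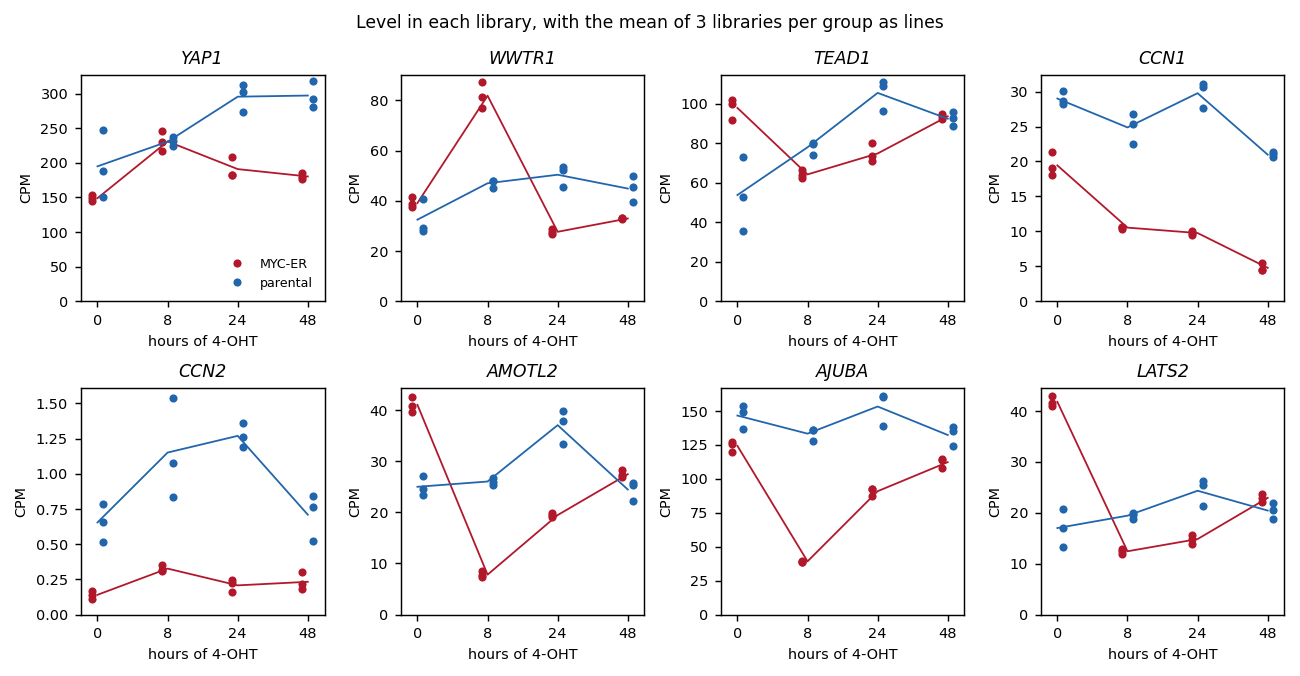
Level of the 8 tested genes in each library (points; CPM on a linear axis from 0) against hours of 4-OHT, with the mean of the 3 libraries per group as lines, MYC-ER in red and parental in blue. AMOTL2, AJUBA and LATS2 dipped at 8 h in MYC-ER cells, WWTR1 peaked there, and CCN1 was lowest in MYC-ER cells at 48 h.

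The coactivators rose in MYC-ER cells at 8 h while TEAD1 fell. YAP1 stood at 153, 149 and 145 CPM at 0 h and at 230, 246 and 217 CPM at 8 h, with no overlap. It rose by 0.63 ± 0.11 (SE) on the log2 scale (adjusted p = 3.33e-05 by edgeR). At 24 h YAP1 was at 208, 182 and 183 CPM, a log2 change from 0 h of 0.36 ± 0.11 (adjusted p = 0.00817 by edgeR). At 48 h it was at 179, 185 and 177 CPM, and the change of 0.27 missed the threshold (adjusted p = 0.0509 by edgeR), although the 3 libraries lay above those at 0 h. That change passed under 5 other settings, with values of 0.28 to 0.43.

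WWTR1 rose and then fell. It was at 38.6, 41.4 and 37.4 CPM at 0 h and at 81.4, 87.3 and 77 CPM at 8 h, a 2.09-fold rise (log2 change 1.07 ± 0.11, adjusted p = 9.01e-09 by edgeR). At 24 h the 3 libraries held 28.6, 26.8 and 27.6 CPM, below each library at 0 h and at 8 h. WWTR1 thus fell 2.96-fold between 8 and 24 h (adjusted p = 4.09e-11 by edgeR) and ended 1.41-fold lower than at 0 h (adjusted p = 0.000289). At 48 h it was at 33.1, 33.1 and 32.7 CPM, a log2 difference from 0 h of -0.25 that missed the threshold (adjusted p = 0.0634) and passed it in a fit of only those groups (-0.24). The level of WWTR1 in MYC-ER cells at 8 h was the highest of the 8 groups and did not overlap the next, parental cells at 24 h (50.4 ± 4.23 CPM, SD, n = 3).

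TEAD1, which supplies the DNA contact for YAP and TAZ, was at 99.6, 102 and 92 CPM in MYC-ER cells at 0 h and at 64, 66.2 and 62.4 CPM at 8 h. The fall was 1.53-fold (log2 change -0.61 ± 0.14, adjusted p = 0.000647 by edgeR), and the groups did not overlap. At 24 h TEAD1 held 79.9, 73.3 and 71.2 CPM (log2 change -0.39, adjusted p = 0.0203 by edgeR). That call was lost on leaving out MYC-ER 0 h replicate 2 or MYC-ER 24 h replicate 2 or 3 (-0.36, -0.38 and -0.36). Scaling by library size alone also lost it (-0.28). At 48 h TEAD1 was at 92.3, 93.9 and 94.6 CPM, within the range at 0 h (log2 change -0.07, adjusted p = 0.749).

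In parental cells these 3 genes rose on 4-OHT. YAP1 was at 188, 247 and 150 CPM at 0 h and at 302, 273 and 312 CPM at 24 h (log2 change 0.6 ± 0.11, adjusted p = 0.000176 by edgeR). WWTR1 went from 29, 40.7 and 27.8 CPM to 52.1, 45.6 and 53.5 CPM (0.63 ± 0.11, adjusted p = 6.59e-05). TEAD1 went from 52.8, 72.8 and 35.7 CPM to 109, 96.4 and 111 CPM (log2 change 0.97 ± 0.14, adjusted p = 1.97e-05). The 0 h and 24 h libraries did not overlap for any of these 3. The share of all genes without overlap is not given for this comparison. At 48 h the log2 changes were 0.61 for YAP1, 0.47 for WWTR1 and 0.78 for TEAD1, each past the threshold. The WWTR1 call at 48 h was lost in a fit of only the groups compared (adjusted p = 0.0674 by edgeR).

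At 8 h in parental cells, the log2 change was 0.53 for WWTR1 and 0.54 for TEAD1, both past the threshold, and 0.24 for YAP1, which was not (adjusted p = 0.105 by edgeR). The parental libraries at 0 h were the most spread group for YAP1 (195 ± 49.1 CPM) and TEAD1 (53.8 ± 18.5 CPM), with replicate 2 highest for each. Without that library YAP1 at 8 h passed the threshold (0.45, adjusted p = 0.000141), as did LATS2 (0.36). Parental changes across 9784 genes followed GC content, with Spearman's rho of -0.599 at 8 h, -0.642 at 24 h and -0.629 at 48 h, against 0.005, -0.081 and 0.015 in MYC-ER cells. Genes are not independent replicates, and these values are descriptions. With GC and length trends removed, the parental 24 h change was 0.38 for YAP1 and 0.65 for TEAD1, both still past the threshold, and 1.02 for AMOTL2 in place of 0.57. The corrected parental 48 h change was 0.4 for YAP1 and 0.47 for TEAD1, smaller than without the correction and still past the threshold. At 8 h the same correction left the parental CCN1 call lost (-0.07 in place of -0.22) and brought AMOTL2 (0.37) and LATS2 (0.32) past the threshold.

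The feedback regulators AMOTL2, AJUBA and LATS2 gave the largest falls among the 8 genes at 8 h in MYC-ER cells. AMOTL2, the angiomotin that retains YAP at junctions, was at 42.6, 40.8 and 39.7 CPM at 0 h and at 7.65, 7.27 and 8.5 CPM at 8 h. This is a 5.26-fold fall (log2 change -2.39 ± 0.076, adjusted p = 3.98e-17 by edgeR). The level then climbed to 19.9, 19.1 and 19.4 CPM (24 h) and 27.3, 28.2 and 26.9 CPM (48 h), and no 2 of the 4 times overlapped. AMOTL2 was still lower at 48 h than at 0 h (log2 change -0.58 ± 0.071, adjusted p = 7.04e-07).

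AJUBA, the LIM protein that binds LATS kinases, went from 127, 126 and 120 CPM at 0 h to 39, 39 and 39.6 CPM at 8 h, a 3.17-fold fall (log2 change -1.66 ± 0.058, adjusted p = 2.3e-16 by edgeR). It was back at 92.4, 87.4 and 92.9 CPM at 24 h (-0.45 against 0 h, adjusted p = 4.21e-07) and at 115, 114 and 108 CPM at 48 h. The remaining difference at 48 h was -0.14 (adjusted p = 0.0433), was 0.02 when libraries were scaled by total alone, and missed the threshold on leaving out any of 5 of the 6 libraries compared. The call was also lost with DESeq2 size factors, without the filter and with at least 10 counts in every library (-0.15 to -0.12). The replicate block and the removal of GC and length trends lost it too (-0.14 for each).

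LATS2, the kinase, was still low at 24 h. It was at 43, 41.5 and 40.9 CPM at 0 h, 12.5, 11.9 and 12.9 CPM at 8 h, 15.7, 14.9 and 13.9 CPM at 24 h and 22.2, 23.7 and 22.9 CPM at 48 h. The falls from 0 h were 3.36-fold by 8 h (log2 change -1.75 ± 0.11, adjusted p = 4.8e-12 by edgeR), 2.81-fold by 24 h (-1.49, adjusted p = 7.48e-11) and 1.82-fold by 48 h (-0.87, adjusted p = 7.93e-07). Between 8 and 24 h AMOTL2 rose by 1.32 and AJUBA by 1.21 on the log2 scale. The LATS2 change of 0.25 just missed the threshold (adjusted p = 0.052) and passed it under 4 other settings (0.27 to 0.46) and without MYC-ER 24 h replicate 3 (0.3). In that comparison 2 of the 8 genes rose and 3 fell (28.4% and 27.1% of all genes), and from 24 to 48 h 4 rose and 1 fell (28.2% and 25.5%). Whether LATS2 differs from AMOTL2 or AJUBA in its recovery was not tested.

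In parental cells AMOTL2 and LATS2 rose at 24 h. AMOTL2 was at 24.5, 27.1 and 23.4 CPM at 0 h and at 37.9, 33.4 and 39.9 CPM at 24 h (log2 change 0.57 ± 0.071, adjusted p = 4.23e-06 by edgeR), and at 22.3, 25.3 and 25.8 CPM at 48 h, overlapping 0 h. With GC and length trends removed the AMOTL2 change at 48 h was 0.38 and passed (adjusted p = 0.00658). LATS2 went from 17, 20.7 and 13.3 CPM to 25.4, 21.3 and 26.3 CPM at 24 h (0.52 ± 0.11, adjusted p = 0.000519), a call lost in a fit of only those 2 groups (adjusted p = 0.0504). Its parental change at 48 h missed the threshold. It passed under library size alone (0.32), at least 10 counts in every library (0.27), GC and length trends removed (0.4) and the DESeq2 Wald test (0.26). AJUBA stayed between 124 and 161 CPM in the 12 parental libraries, and its parental change passed the threshold at 48 h (-0.15, adjusted p = 0.041 by edgeR). That call was lost under 5 other settings, among them GC and length trends removed (-0.04) and library size alone (-0.09), and on leaving out any of 4 of the 6 libraries (parental 0 h replicate 1 or 2, parental 48 h replicate 1 or 2). With GC and length trends removed AJUBA passed at 24 h instead (0.17, adjusted p = 0.0382).

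The 2 secreted targets went different ways. CCN1, a matricellular protein, fell in MYC-ER cells at each time. It was at 21.3, 18 and 19 CPM at 0 h, 10.4, 10.6 and 10.6 CPM at 8 h, 10.1, 9.75 and 9.42 CPM at 24 h and 5.42, 4.4 and 4.51 CPM at 48 h. The falls from 0 h were 1.84-fold (log2 change -0.88 ± 0.079, adjusted p = 1.74e-09 by edgeR), 2-fold (-1 ± 0.079, adjusted p = 2.95e-10) and 4.07-fold (-2.03 ± 0.082, adjusted p = 1.04e-14). Of the 8 genes CCN1 alone was at least 2-fold changed at 48 h, where 13.4% of all genes were. It was also the gene of the 8 that fell further between 24 and 48 h (-1.03, adjusted p = 4.55e-10), while AMOTL2, AJUBA, LATS2 and, with an adjusted p of 0.0473, WWTR1 rose. The WWTR1 call was lost under 5 of the 8 other settings (0.23 to 0.25) and on leaving out any of the 6 libraries compared (0.23 to 0.28). In parental cells CCN1 went from 28.2, 30.1 and 28.7 CPM at 0 h to 21, 20.6 and 21.3 CPM at 48 h (-0.47 ± 0.078, adjusted p = 8.45e-05), with 31.1, 30.6 and 27.6 CPM at 24 h.

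CCN2, a close relative of CCN1 and a standard YAP reporter gene, was scarce. In MYC-ER cells it had 29, 20 and 24 counts at 0 h (0.168, 0.113 and 0.14 CPM) and 44, 50 and 46 counts at 8 h (0.318, 0.355 and 0.307 CPM). The rise was 2.32-fold (log2 change 1.21 ± 0.27, adjusted p = 0.000496 by edgeR), with no overlap. At 24 h CCN2 held 0.157, 0.221 and 0.244 CPM (log2 change 0.56, adjusted p = 0.0881). By 48 h it was at 0.179, 0.304 and 0.215 CPM (0.72, adjusted p = 0.0387). The 48 h call was lost in 4 of the leave-one-library fits, with 0.58 without MYC-ER 0 h replicate 2, 0.71 without MYC-ER 0 h replicate 3, 0.48 without MYC-ER 48 h replicate 2 and 0.77 without MYC-ER 48 h replicate 3. That call was also lost without the filter (0.71) and with the replicate number as a block (0.7). A fit of only those groups (0.73) and the DESeq2 Wald test (0.72) lost it too. In parental cells CCN2 was at 0.516, 0.788 and 0.66 CPM at 0 h, 1.54, 1.08 and 0.834 CPM at 8 h (0.81 ± 0.25, adjusted p = 0.0158) and 1.36, 1.26 and 1.19 CPM at 24 h (0.96 ± 0.25, adjusted p = 0.00309). The parental rise at 8 h missed the threshold without parental 0 h replicate 1 (0.66) or parental 8 h replicate 1 (0.56). At 48 h the parental libraries at 0.521, 0.764 and 0.844 CPM overlapped those at 0 h.

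ANKRD1, an ankyrin-repeat protein and YAP target in other cells, was near absent. It had 0 counts in 19 of the 24 libraries. Counts were found in MYC-ER at 8 h (2, 2 and 0), MYC-ER at 48 h (7, 0 and 5) and parental at 24 h (3, 0 and 0). A count of 0 in the smallest library allows up to 0.0219 CPM, taking 3 counts as the limit, which covers counting error alone. No fold is given for ANKRD1.

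**Figure D2:**
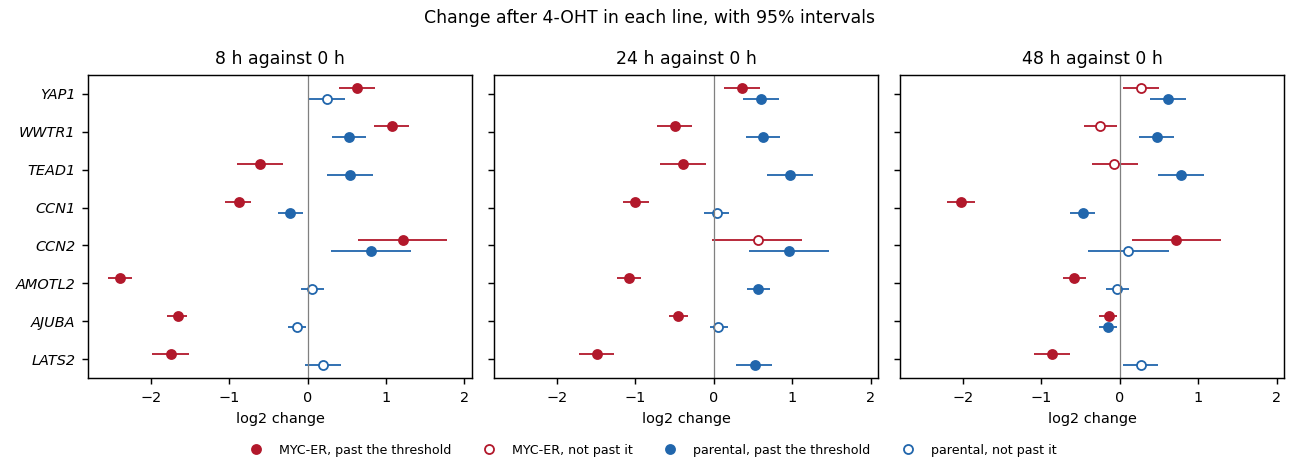
Log2 change from 0 h (x axis) of the 8 tested genes at 8, 24 and 48 h in MYC-ER (red) and parental cells (blue), with 95% intervals as bars and filled points past the threshold. At 8 h AMOTL2, AJUBA and LATS2 lay at -2.39, -1.66 and -1.75 in MYC-ER cells and at 0.06, -0.14 and 0.19 in parental cells.

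The lines differed before any 4-OHT. At 0 h each of the 8 genes passed the test between the lines, with 4 above and 4 below the parental level in MYC-ER cells (31.6% and 32.7% of all genes). LATS2 was 2.46-fold higher in MYC-ER cells (41.8 ± 1.06 against 17 ± 3.67 CPM, SD, n = 3; log2 difference 1.3, adjusted p = 7.3e-10 by edgeR). TEAD1 was 1.82-fold and AMOTL2 1.64-fold higher. Over the other fits the log2 difference ran from 0.61 (GC and length trends removed) to 1.15 (without parental 0 h replicate 2) for TEAD1. For AMOTL2 it ran from 0.69 (without MYC-ER 0 h replicate 1) to 1.06 (GC and length trends removed), and both genes kept their calls. WWTR1 was 1.2-fold higher, with overlapping libraries, and its call was lost on leaving out MYC-ER 0 h replicate 1 or 2 or parental 0 h replicate 1 or 3 (0.19 to 0.28). The WWTR1 call was also lost without the filter and in a fit of only the groups compared (0.27 in each). CCN2 was 4.64-fold lower in MYC-ER cells (0.141 ± 0.0274 against 0.655 ± 0.137 CPM, adjusted p = 2.59e-07), CCN1 1.49-fold, YAP1 1.31-fold and AJUBA 1.18-fold. The AJUBA call was lost with GC and length trends removed (-0.1). Leaving out parental 0 h replicate 2 took the YAP1 difference to -0.18 (adjusted p = 0.0595), short of the threshold. A fit of only the groups compared also lost the YAP1 call (-0.38, adjusted p = 0.0716 by edgeR).

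At equal times on 4-OHT, MYC-ER cells had 1 of the 8 genes above and 5 below the parental level at 8 h (23.1% and 25.5% of all genes), 0 above and 8 below at 24 h (23.5% and 25.8%), and 0 above and 5 below at 48 h (27.3% and 29.4%). The gene higher at 8 h was WWTR1 (log2 difference 0.8, adjusted p = 1.53e-06 by edgeR). YAP1 at 8 h was at 231 CPM in both lines, with a 95% interval of the log2 difference from -0.23 to 0.23. At 48 h the level of LATS2, which began 2.46-fold apart, was 22.9 ± 0.769 CPM in MYC-ER and 20.4 ± 1.69 CPM in parental cells, a difference that missed the threshold (0.17, adjusted p = 0.198). TEAD1 and AMOTL2 also missed it at 48 h (0.02 and 0.17). AMOTL2 passed under 5 other settings (0.17 to 0.31) and without parental 48 h replicate 3 (0.2), and LATS2 under library size alone (0.31) and in a fit of only those groups (0.18), so the misses do not show equal levels. CCN1 moved apart instead, from 1.49-fold lower in MYC-ER cells at 0 h to 4.39-fold lower at 48 h.

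The line by time interaction subtracts the parental change from that in MYC-ER cells and tests whether the lines responded differently. At 8 h 2 of the 8 genes had a higher and 5 a lower change in MYC-ER cells (27.3% and 27.8% of all genes, 55.2% together), at 24 h 0 and 6 (27.7% and 26.8%, 54.5% together), and at 48 h 0 and 5 (23.6% and 21.4%, 45% together). AMOTL2 had the largest at 8 h (-2.45 ± 0.1, adjusted p = 1.72e-14 by edgeR), then LATS2 (-1.94 ± 0.15, adjusted p = 4.78e-10) and AJUBA (-1.53 ± 0.081, adjusted p = 7.13e-13). WWTR1 turned from a larger rise at 8 h (0.53 ± 0.15, adjusted p = 0.00409) to a lower change at 24 h (-1.13 ± 0.15, adjusted p = 1.16e-06). YAP1 at 8 h barely passed (0.39 ± 0.16, adjusted p = 0.0403), and the call was lost with scaling by library size alone (0.28), without the filter (0.4) and in a fit of only the groups compared (0.4). It was also lost on leaving out any of 9 of the 12 libraries, with 0.34 to 0.41 for 8 of them and 0.18 without parental 0 h replicate 2. Without that same library the YAP1 interaction was -0.45 at 24 h and -0.54 at 48 h, both past the threshold (adjusted p = 0.00132 and 0.00028), where it otherwise was not (-0.25 and -0.34). With GC and length trends removed it was -0.04 at 24 h and -0.06 at 48 h. For CCN2 the interaction did not pass at any time, and its 95% interval ran from -0.35 to 1.16 for 8 h, -1.17 to 0.37 for 24 h and -0.16 to 1.37 for 48 h.

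Other genes of the pathway were read from lists written from general knowledge. The 17 other YAP and TAZ targets split at 8 h in MYC-ER cells: 10 rose and 6 fell, where 32.2% of all genes rose and 35.4% fell, with a median log2 change of 0.38 against -0.1 over all genes. NT5E, the ecto-nucleotidase CD73, rose from 15.7 to 242 CPM (log2 change 3.95, adjusted p = 2.1e-19 by edgeR), and F3, tissue factor, from 4.15 to 54.3 CPM (3.71, adjusted p = 1.9e-17). RBMS3, an RNA-binding protein, fell from 7.63 to 0.88 CPM (-3.12, adjusted p = 5.89e-14). NT5E and F3 started below their parental levels, which were 78.4 and 34.6 CPM at 0 h. Later 8 rose and 6 fell at 24 h (30.4% and 31.2% of all genes), and 8 rose and 5 fell at 48 h (23.4% and 20.7%). In parental cells 7 rose and 1 fell at 8 h (15% and 16% of all genes), 12 rose and 0 fell at 24 h (21.2% and 21.7%), and 10 rose and 3 fell at 48 h (20.4% and 20.1%), with a median of 0.6 at 24 h against -0.03 over all genes.

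Among the factors themselves, the other TEAD genes and the VGLL cofactors, which compete with YAP and TAZ for TEAD, gave 5 tested genes of 7 listed. At 8 h in MYC-ER cells TEAD4 rose from 11.2 to 43.8 CPM (log2 change 1.96, adjusted p = 8.72e-14 by edgeR) and the other 4 fell, where 32.2% of all genes rose and 35.4% fell. VGLL3 fell from 60.5 to 6.3 CPM (-3.26, adjusted p = 4.51e-12) and TEAD2 from 21.2 to 10.1 CPM (-1.07, adjusted p = 5.76e-13). The same split of 1 higher and 4 lower was counted at 24 h (30.4% and 31.2% of all genes) and 48 h (23.4% and 20.7%).

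Of 25 other kinases and upstream regulators, 10 rose and 5 fell at 8 h in MYC-ER cells (32.2% and 35.4% of all genes), with a median log2 change of 0.06. MAP4K4, a kinase that can act on LATS beside STK3 and STK4, rose from 159 to 879 CPM (2.47, adjusted p = 3.97e-18 by edgeR), and the FERM protein FRMD6 from 44.2 to 121 CPM (1.45, adjusted p = 2.08e-10). AMOT, the angiomotin relative of AMOTL2, had 8 to 15 counts per library at 0 h and 0 at 8 h, and was past the threshold (adjusted p = 0.00149), so no fold is given for it. LATS1 gave 0.23 and did not pass. In parental cells 14 rose and 4 fell at 8 h (15% and 16% of all genes), 17 rose and 2 fell at 24 h (21.2% and 21.7%), and 13 rose and 3 fell at 48 h (20.4% and 20.1%).

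The MRTF and SRF targets, actin and cytoskeleton genes that respond to cell tension beside YAP, had 9 tested of 10 listed. At 8 h in MYC-ER cells 6 rose and 2 fell (32.2% and 35.4% of all genes). ACTB, beta-actin, rose from 539 to 4720 CPM (3.13, adjusted p = 7e-19 by edgeR) and FLNA, the actin cross-linker filamin A, from 212 to 1510 CPM (2.83, adjusted p = 2.59e-17). TPM1, a tropomyosin, fell from 108 to 38.8 CPM (-1.47, adjusted p = 1.2e-15), and ACTA2 from 11.5 to 5.55 CPM (-1.06, adjusted p = 4.52e-08). In parental cells at 0 h ACTB stood at 3370 CPM and FLNA at 840 CPM, so for these genes the MYC-ER level at 0 h was the low one.

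**Figure D3:**
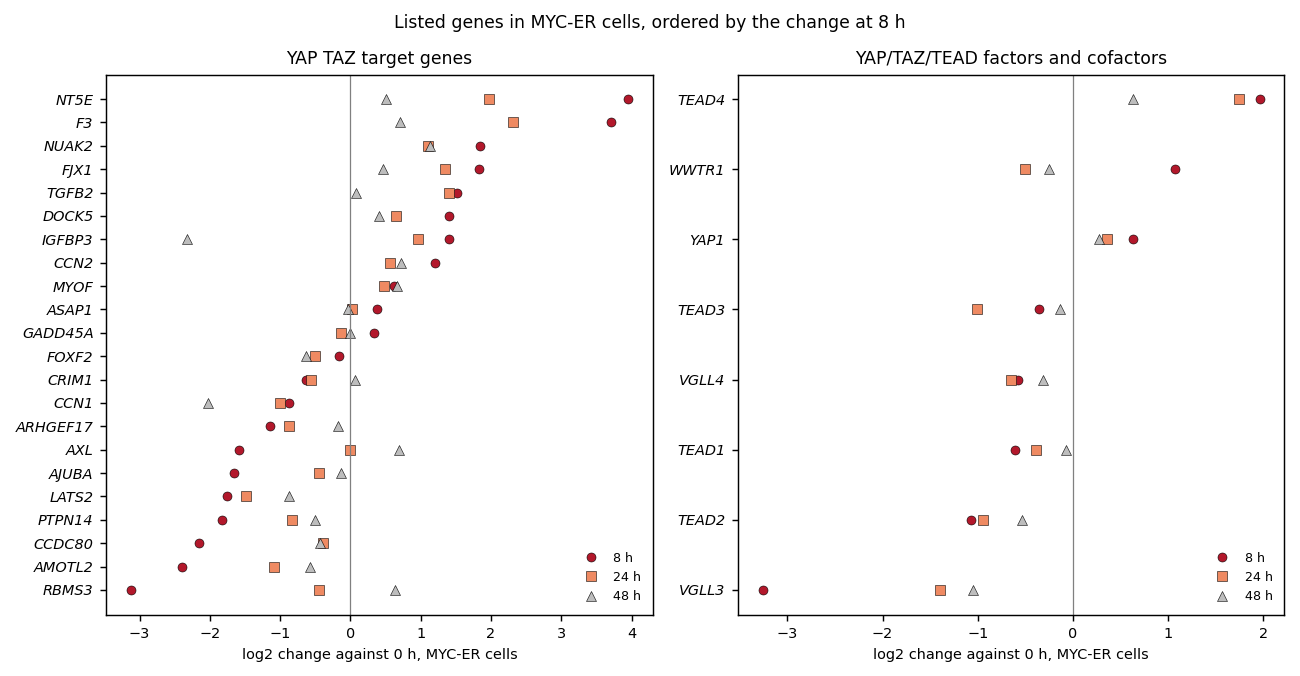
Log2 change from 0 h in MYC-ER cells (x axis) of each tested gene of the YAP and TAZ target list (left) and of the factors and cofactors (right), at 8 h (circles), 24 h (squares) and 48 h (triangles), ordered by the 8 h value. Targets ran from 3.95 for NT5E to -3.12 for RBMS3, and factors from 1.96 for TEAD4 to -3.26 for VGLL3.

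Levels can be compared between genes per kilobase of merged exons. In MYC-ER cells at 0 h YAP1 stood at 23.7 CPM per kilobase, AJUBA at 20.8, TEAD1 at 9.53, CCN1 at 7.92, LATS2 at 7.49, AMOTL2 at 6.86, WWTR1 at 4.65 and CCN2 at 0.0601. YAP1 thus had a higher level per length than WWTR1 there, and also at 8 h (36.7 against 9.74 CPM per kilobase). Across the 8 groups the mean level of AMOTL2 ranged 5.26-fold, all of it within the MYC-ER line, and in parental cells 1.51-fold.

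Across the 24 libraries, which share lines, times and scaling, Pearson's r of log2 CPM was 0.91 between AMOTL2 and AJUBA, 0.82 between AMOTL2 and LATS2 and 0.57 between AJUBA and LATS2. It was 0.52 between YAP1 and WWTR1, 0.74 between YAP1 and CCN2 and 0.66 between CCN1 and CCN2. These values are descriptions and carry no p. Among 10767 genes of at least 10 CPM in some group, those most like YAP1 were SLC26A2 (r = 0.959), VCL (0.953) and KLF12 (0.947), and those most like WWTR1 were LHFPL2 (0.984), FYTTD1 (0.964) and MCL1 (0.961). For CCN1 they were GHITM (0.953), FHDC1 (0.945) and PRKACA (0.932), and for CCN2 CYP4F11 (0.935), BMAL1 (0.935) and SANBR (0.933).

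Some exons are shared with other annotated genes. An antisense gene covers 10% of the exon bases of YAP1 (AP000942.2), 9.4% of WWTR1 (WWTR1-AS1) and 8.3% of CCN2 (AL133346.1), and the pseudogene RPL39P5 covers 3.1% of AMOTL2. Whether reads were counted by strand is not given in the sources used here, so reads of these shared bases cannot be told apart.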

How the data were processed

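The 24 libraries were poly(A)-selected, stranded and read as 150-base pairs, with 3 libraries pooled per lane, per the labels' protocols; lane membership is not given in the sources used here. The deposited table holds estimated counts per gene, already whole numbers, so nothing was rounded. Per the submitters' processing notes the authors used Trimmomatic 0.39, STAR and StringTie 2.1.3b with GRCh38; the step from StringTie output to counts, the annotation release and the strand setting are not given in the sources used here. Since the counts are estimates, limits that treat them as reads are approximate.

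In edgeR 4.0.16 under R 4.3.3, filterByExpr left 22158 genes, totals were TMM-scaled, and all 24 libraries entered a single quasi-likelihood fit of 8 group means. Each of 15 contrasts had its own Benjamini-Hochberg adjustment and a threshold of 0.05. Log2 CPM used a prior count of 2. Exon lengths, overlaps and GC content came from GENCODE, and promoters from RefSeq GRCh38.p14. The fit was tested on simulated data, with 200 genes changed in the MYC-ER 8 h group and the same spread for each gene and group. These data hold more changed genes and uneven spread, so that test does not cover their setting. No replicate pair agreed within sampling noise.

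Alternatives were DESeq2 1.42.0 (size factors and Wald test), library size alone, no filter, at least 10 counts in every library, the replicate number as a block, GC and length trends removed (lowess span 0.3), only the groups compared, and leaving out each library. The 9 genes, the lists and the rule for naming genes were chosen with earlier results of these data known. Named genes are the 9, from each list the 2 genes that rose most and the 2 that fell most at 8 h in MYC-ER cells (past the threshold, no overlap), the 3 most like YAP1, WWTR1, CCN1 and CCN2 (ANKRD1, also in the rule, was not tested), and cell type markers. LATS1 was named after its value was seen.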

Additional observations from a re-analysis of the deposited data

Results flagged for a closer look

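The change from 0 h differed between the 2 lines by the line by time test in edgeR for 18 of the 24 gene and time combinations. Each value is the MYC-ER log2 change minus the parental one. At 8 h the values were YAP1 0.39, WWTR1 0.53, TEAD1 -1.15, CCN1 -0.66, AMOTL2 -2.45, AJUBA -1.53, LATS2 -1.94. At 24 h they were WWTR1 -1.13, TEAD1 -1.36, CCN1 -1.03, AMOTL2 -1.64, AJUBA -0.52, LATS2 -2.01. At 48 h they were WWTR1 -0.71, TEAD1 -0.85, CCN1 -1.56, AMOTL2 -0.55, LATS2 -1.13. The interaction across 9784 genes followed GC content, with Spearman's rho of 0.212, 0.225 and 0.438 at 8, 24 and 48 h. With GC and length trends removed, the 48 h value was smaller for TEAD1 (-0.46) and larger for CCN1 (-1.75) and AMOTL2 (-0.9), each still past the threshold. The 3 sets share the 0 h libraries of both lines, and across all genes 55.2%, 54.5% and 45% passed the same test. The YAP1 value at 8 h was 0.18 without parental 0 h replicate 2 and no longer passed, as on leaving out any of 8 other libraries.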

How the results depend on the processing

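Over 120 gene results and 1824 alternative values, 1653 kept direction and side of the threshold, 98 lost the call, 46 gained one and 27 changed sign. The 8 h calls in MYC-ER cells held for all 8 genes under each of the 8 other settings. Scaling by library size alone moved the median of all genes by 0.162 at 48 h against 0 h in MYC-ER cells and by 0.206 at 24 h against 8 h, and by 0.116, 0.125, 0.142, -0.119 and 0.103 for MYC-ER 24 h, the lines at 24 and 48 h and the interactions at 8 and 48 h. The share of called genes that were higher went from 53% to 73.8% at MYC-ER 48 h, 51.2% to 67.8% at 24 h against 8 h, 47.6% to 60.7% and 48.2% to 59.8% between lines at 24 and 48 h, and 52.5% to 63.5% for the 48 h interaction.

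Members called at MYC-ER 48 h were 5, but 3 without the filter and 3 with the replicate block. Genes called there were 9772, against 9136 without the filter and 9692 with the block. At MYC-ER 24 h against 8 h members called were 5, but 3 without the filter, where genes called went from 12296 to 11733. In fits of only the groups compared, with fewer samples, parental members called were 0 at 8 h (4 by the fit over all libraries) and 3 at 48 h, and genes called were 1452, 4923 and 3274 at 8, 24 and 48 h in place of 6870, 9503 and 8978. Leaving out 1 library gave 3 to 4 members at MYC-ER 48 h, 3 to 5 at 24 h against 8 h and 2 to 5 at parental 8 h, with 2 without parental 0 h replicate 1. Counts over all genes are not given for these fits. Replicate numbers did not pair the samples: correlations of same-numbered libraries ran from -0.078 to 0.094 over 84 pairs, and 29 were the best match. The block with a GC correction was not run for that reason.

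Sign changes under library size alone were TEAD1 0.1 and AJUBA 0.02 (MYC-ER 48 h), CCN1 0.09 (24 h against 8 h), AMOTL2 0.02 (parental 48 h) and YAP1 -0.08 (lines at 8 h). With GC and length trends removed they were TEAD1 0.01, CCN1 0.03, AMOTL2 0.38 (adjusted p = 0.00658 by edgeR), YAP1 -0.04 and AJUBA -0.1 (interaction at 48 h). AJUBA there was 0 without the filter, and YAP1 between lines at 8 h was -0.02 with at least 10 counts in every library. Leaving out 1 library gave ranges of -0.04 to 0.03 for AJUBA (interaction at 48 h), -0.04 to 0.05 for YAP1 (lines at 8 h), -0.07 to 0.32 for CCN2 (48 h against 24 h), -0.03 to 0.29 for CCN2 and -0.07 to 0.03 for AMOTL2 (parental 48 h), and -0.01 to 0.04 for TEAD1 (lines at 48 h). Apart from AJUBA at MYC-ER 48 h, none of these had passed the threshold, and the cause was not tested. Depth limits the precision for CCN2 and ANKRD1.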
